A study of Mus musculus with 8 samples.

Results

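Mir296 and Mir298 are neighbouring microRNA (miRNA) genes at the imprinted Gnas locus on mouse chromosome 2. They are 2 of the 2202 miRNA genes in the count tables, and 560 of those genes had a count. The pair was chosen by genomic position, with their counts in these 8 libraries already known, so all of their values below are given as descriptions without p-values. The libraries hold small RNA from spleen B cells of mice with the Ago2HA/HA genotype, in which both copies of Ago2 encode an HA epitope, and every group shares this genotype. The cells were purified by removing CD43-bearing cells and were used resting or after activation in vitro, which made them proliferate. From each state there are 2 libraries of input RNA and 2 of RNA co-purified with AGO2 by an anti-HA antibody (immunoprecipitate, IP), making 4 groups. The IP of animals lacking the epitope recovered no RNA, per the labels, so the input serves as reference for each IP. The sources used here give no strain, age, activating agent or culture time.

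A miRNA gene is transcribed into a hairpin precursor, from which one arm or the other is cut out as a mature RNA and loaded into an Argonaute protein such as AGO2. The mature RNA then represses messenger RNAs that pair with its seed, bases 2 to 8. At an imprinted locus one parental allele is expressed, and Mir296 and Mir298 are known to be expressed from the paternal allele, like the antisense transcript Gnasas1 (also called Nespas) that regulates the locus. The neighbouring gene Gnas encodes the stimulatory G protein alpha subunit. miR-296 has been described as a repressor of the pluripotency factor Nanog, and miR-298 as a repressor of the protease gene Bace1. The counts carry no information on the allele.

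Mir296 (ENSMUSG00000065521.1) lies on the minus strand at chr2:174267047-174267125 (mm10), and Mir298 (ENSMUSG00000065410.1) on the same strand at chr2:174267504-174267585. The hairpins are 79 and 82 nt long and are separated by 378 nt. No other RefSeq gene span and no other counted feature overlaps them, so neither lies in an annotated exon or intron of a host gene in RefSeq. The near edge of the Gnasas1 span lies 13651 nt and that of the Gnas span 16734 nt beyond Mir298. Within 2 Mb of the pair the tables hold 3 other miRNA features, and none of them had a count. The hairpins are shown because each count covers both arms of one of them, with the mature arms in capitals (RefSeq, GRCm38.p6, 5′ to 3′, mature 5p arm first):
Mir296: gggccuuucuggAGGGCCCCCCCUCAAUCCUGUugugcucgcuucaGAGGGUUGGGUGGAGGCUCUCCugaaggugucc
Mir298: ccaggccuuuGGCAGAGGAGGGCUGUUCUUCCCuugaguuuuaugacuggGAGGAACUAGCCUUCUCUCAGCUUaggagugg

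**Figure D1:**
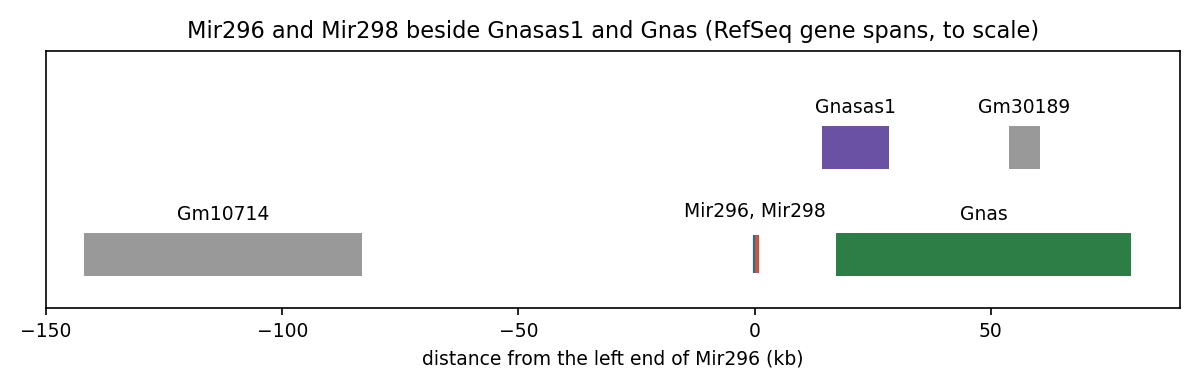
Gene spans around Mir296 and Mir298, drawn to scale along the distance from the left end of Mir296 in kb. Both miRNA genes sit outside the spans of Gnasas1 and Gnas, whose near edges lie 13651 and 16734 nt beyond Mir298.

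The 4 mature RNAs are shown with their seeds in capitals, since the seed decides which transcripts a miRNA can pair with:
miR-296-5p: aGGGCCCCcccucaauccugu
miR-296-3p: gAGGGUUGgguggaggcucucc
miR-298-5p: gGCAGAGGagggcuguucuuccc
miR-298-3p: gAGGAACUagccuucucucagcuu

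No seed is shared between these 4 RNAs or with any other of the 1738 mature entries of the RefSeq table, which is not complete. None of the 4 sequences occurs in another hairpin of that table. As far as that table shows, their reads are not shared with another miRNA gene. miR-296-3p has a GC content of 68.2%, miR-296-5p of 66.7% and miR-298-5p of 65.2%, against a median of 52.2% over the mature entries. miR-298-3p is at 50%. The Mir296 hairpin, at 63.3% GC, exceeds 89.7% of the 1005 hairpins, and the Mir298 hairpin, at 53.7%, exceeds 59.2%.

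Library totals ranged from 213418 to 1681148 counts, and 219 features had enough counts for a model, both members among them. Nothing in the labels says that replicate libraries are from different animals, so SDs, SEs and p-values measure the spread between these libraries, which may be technical. SDs are each gene's own. SEs and p-values rest mostly on a spread shared over the tested features (prior degrees of freedom 36.6, residual 4). Lymphocyte miRNAs (Mir150, Mir155, Mir146 and Mir342, 4 of 4 with counts) made up 29.8% to 46.1% of each library. The myeloid miRNA Mir223 took 1.15% to 2.94% of resting and 0.0695% to 0.339% of proliferating libraries. All 4 muscle genes and 4 of 6 neural genes on the marker list were at 0. Resting and proliferating cells are also in separate tables, so cell state and anything done per table cannot be told apart.

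Both members were several times more abundant in proliferating than in resting B cells. In resting cells Mir296 had 95 and 55 counts in input and 303 and 201 in IP, and in proliferating cells 431 and 469 in input and 567 and 1637 in IP. In resting cells Mir298 had 97 and 95 counts in input and 186 and 125 in IP, and in proliferating cells 547 and 412 in input and 817 and 1525 in IP. These raw counts follow library depth as well as level, and the deepest library, resting IP 1, gave fewer counts of either gene than each proliferating input. The pair took 0.0388% to 0.0535% of the resting inputs and 0.354% to 0.413% of the proliferating inputs. In the IPs it took 0.0291% to 0.0413% in resting and 0.174% to 0.230% in proliferating cells. By count, Mir296 ranked between 75 and 107 among the features of a resting library and between 41 and 55 in a proliferating one. Mir298 ranked between 82 and 97, and between 43 and 49. The smallest count, 55 of 386598, is 142 CPM (the count scaled to the total of its library) with an exact 95% interval of 107 to 185, which covers counting error only.

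Counts were scaled to CPM with TMM factors, which correct for differences in composition between libraries. On this scale Mir296 was at 266 and 135 CPM in the resting inputs and at 1216 and 1645 CPM in the proliferating inputs. Both resting libraries were below both proliferating libraries. Mir298 was at 271 and 233 CPM in the resting inputs and at 1544 and 1445 CPM in the proliferating inputs, again without overlap. Of all 219 features, 43.4% lay apart in this direction in the inputs, so a lower value in both resting libraries was common. The log2 fold change of resting against proliferating input was -2.84 (SE 0.38) for Mir296 and -2.57 (SE 0.34) for Mir298, which puts Mir296 7.15 times and Mir298 5.92 times as high in proliferating cells. The median over all features was -0.04. Mir296 was the 26th lowest and Mir298 the 33rd lowest of the 219 features, so both lay in the lower part of the distribution without being at its end. In bulk samples, more cells with the miRNA and more of it per cell cannot be told apart.

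**Figure D2:**
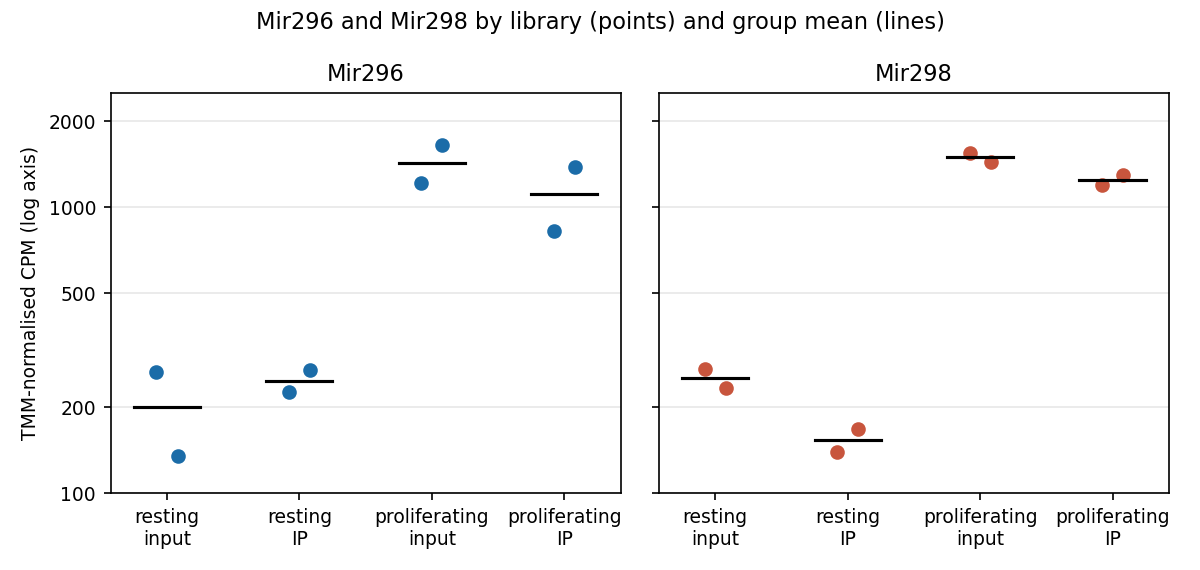
TMM-normalised CPM of Mir296 and Mir298 on a log axis, with 1 point per library and a line at the mean of the 2 libraries of each group. All resting points lie between 135 and 271 CPM and all proliferating points between 829 and 1645 CPM.

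AGO2-bound RNA showed the same order of the states. Mir296 was at 226 and 269 CPM in the resting IPs and at 829 and 1388 CPM in the proliferating IPs. Mir298 was at 139 and 167 CPM in the resting IPs and at 1195 and 1293 CPM in the proliferating IPs. Neither gene's groups overlapped, as was the case in this direction for 42% of features. The log2 fold change of resting against proliferating IP was -2.17 (SE 0.36) for Mir296 and -3.03 (SE 0.34) for Mir298, or 4.49 and 8.14 times as high in proliferating cells. Only 13 of the 219 features had a lower value than Mir298 in this comparison, against 39 for Mir296. Whether the difference between states itself differed between the 2 genes was not tested, and in input their values lay within 1 SE of each other.

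Marker miRNAs of other cell types moved with cell state too. The endothelial and platelet miRNA Mir126a (1 of 1 with counts) was at 0.0173% to 0.0253% of the resting and 0.0626% to 0.0820% of the proliferating inputs, the same direction as the pair. It was at 0.00613% to 0.0147% of the resting and 0.0889% to 0.176% of the proliferating IPs. The hepatocyte miRNA Mir122 (1 of 1) was at 0.000836% to 0.00103% of the resting and 0.00609% to 0.00796% of the proliferating inputs. Its resting input values are at or close to the floor of 3 counts, so the size of this difference is uncertain. In the IPs Mir122 was lower in proliferating cells, at 0.000509% to 0.00126% against 0.00280% to 0.00355%. The epithelial list (5 of 5) ran the other way in the inputs, at 0.109% to 0.129% in resting and 0.0586% to 0.0759% in proliferating cells, and so did the erythroid Mir144, at 0.0114% to 0.0235% and 0.00181% to 0.00234%. Mir451a and the stromal Mir145 could not be matched by position, the stromal Mir143 took at most 0.00111% of a library and the neural list at most 0.000362%. Their part in the pair's values was not tested.

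The comparison of IP with input asks how far a miRNA is held by AGO2 relative to its level in the cell. In resting cells Mir298 was lower in the IP than in the input, while for Mir296 the 2 could not be told apart. Mir296 averaged 248 ± 30.3 CPM in the IP and 200.5 ± 92.5 CPM in the input (mean ± SD, n = 2 here and below), and both IP values fell between 226 and 269 CPM, inside or just above the range of the inputs. Its log2 fold change was 0.31 (SE 0.36), smaller than its error. Mir298 averaged 153 ± 20.2 CPM in the IP and 252 ± 27.0 CPM in the input. Both IP libraries were below both input libraries, as for 34.7% of all features, and the log2 fold change was -0.72 (SE 0.33). The median over all features was -0.05.

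In proliferating cells both genes were slightly lower in the IP, by amounts near their errors. Mir296 averaged 1109 ± 395 CPM in the IP and 1431 ± 303 CPM in the input, and the groups overlapped (with library totals in place of TMM they did not). Mir298 averaged 1244 ± 69.4 CPM in the IP and 1494 ± 69.8 CPM in the input, and the groups did not overlap, which held in this direction for 30.6% of features. The log2 fold changes were -0.37 (SE 0.34) for Mir296 and -0.26 (SE 0.31) for Mir298, and the median feature was at 0.11. These sizes depend on scaling. With library totals in place of TMM factors they became -0.98 and -0.87, and the median of all features moved to -0.50. Relative to the median feature, Mir296 lay between -0.53 and -0.48 and Mir298 between -0.39 and -0.38 under the 4 scalings tried. In resting cells, relative to the median feature, Mir296 lay between 0.36 and 0.39 and Mir298 between -0.67 and -0.65.

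**Figure D3:**
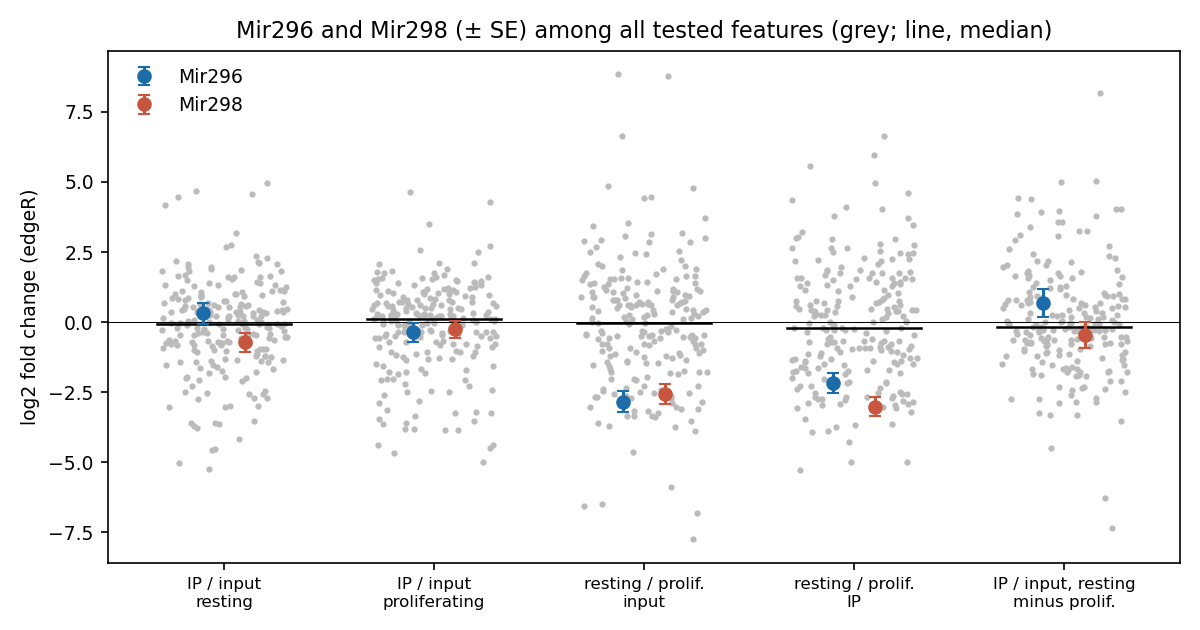
Log2 fold changes of Mir296 and Mir298 with their SE in 5 comparisons, over the 219 tested features (grey points, line at the median). In the comparisons of cell states both genes lie at -2.17 or below, while in those of IP with input they lie between -0.72 and 0.31.

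The log2 difference of the IP-to-input contrast between states, resting minus proliferating, was 0.67 (SE 0.50) for Mir296 and -0.46 (SE 0.45) for Mir298. Both values are close to their errors. The 4 groups of Mir296 therefore ran, from low to high, as resting input, resting IP, proliferating IP and proliferating input, and neighbours within a state overlapped. The order for Mir298 was resting IP, resting input, proliferating IP and proliferating input, with no overlap between any neighbours. Library resting input 1 weighed on the resting comparison. Without it the IP-to-input log2 fold change was 1.08 for Mir296 and -0.40 for Mir298. The median of all features also rose, from -0.05 to 0.27, so these shifts are not those of the 2 genes alone. The difference between states was then 1.73 and 0.14, with the median at 0.43 against -0.17 in the full fit. Without resting IP 2 the IP-to-input value in resting cells was -0.07 for Mir296, with the median of all features at -0.30. Without proliferating input 2 the difference between states was 0.17 for Mir298, with the median at 0.54. The sign of neither value was stable, but in these fits Mir296 stayed above and Mir298 below the median, as in the full fit. That order did not hold in every fit. Without resting input 2 the IP-to-input value of Mir296 in resting cells was 0.04, below the median of 0.18. With no filter on low counts the difference between states for Mir298 was -0.226, just above the median of -0.243.

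The ratio of the neighbours to each other needs no scaling between libraries, since both counts come from the same library. Mir296 made up 62.0% (exact 95% interval 57.5 to 66.3) and 61.7% (56.1 to 67.0) of the pair's counts in the resting IPs. In the resting inputs it made up 49.5% (42.2 to 56.8) and 36.7% (29.0 to 44.9). The 2 IP libraries were higher than both inputs, and the intervals of resting IP 2 and resting input 1 overlapped slightly. In proliferating cells the share was 44.1% (40.9 to 47.2) and 53.2% (49.9 to 56.6) in the inputs and 41.0% (38.4 to 43.6) and 51.8% (50 to 53.5) in the IPs, so inputs and IPs covered the same range. Group means were 43.1% ± 9.06 in the resting input, 61.8% ± 0.217 in the resting IP, 48.7% ± 6.48 in the proliferating input and 46.4% ± 7.64 in the proliferating IP. Per nucleotide of hairpin, the Mir296 count was 1.69 and 1.67 times that of Mir298 in the resting IPs and between 0.601 and 1.18 times in the other 6 libraries. The resting IPs were the 2 libraries with the largest share of Mir296.

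**Figure D4:**
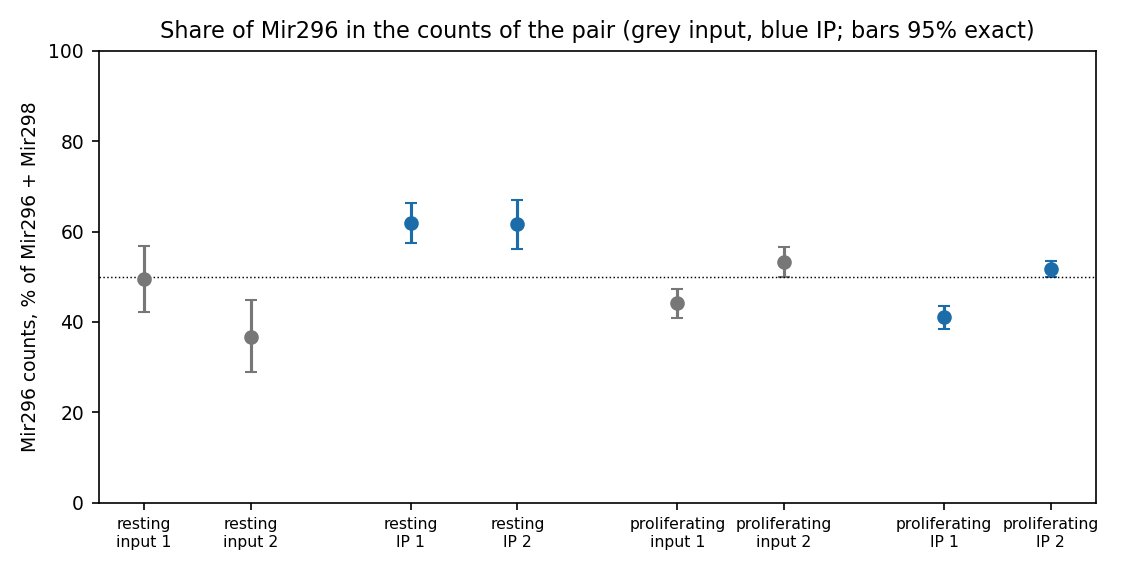
Counts of Mir296 as a percentage of the counts of Mir296 and Mir298 together in each of the 8 libraries, with exact 95% intervals that cover counting error only (grey, input; blue, IP). The resting IP libraries stand at 62.0% and 61.7%, and the other 6 lie between 36.7% and 53.2%.

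Over the 8 libraries the log2 CPM of Mir296 and Mir298 correlated with r = 0.94. Because the libraries fall into a low resting and a high proliferating set of 4, such a value mostly restates that difference, and it is given as a description. The features most like Mir296 were Mir96 (r = 0.97), Mir18b (0.97), Mir183 (0.96), Mir18 (0.96) and Mir155 (0.96). Those most like Mir298 were Mir34a (r = 0.99), Mir183 (0.99), Mir18 (0.99), Mir155 (0.98) and Mir182 (0.98). Mir183, Mir96 and Mir182 form a single cluster, Mir155 is made from a transcript induced by B cell activation, and Mir34a is a known target of p53. Mir18 and Mir18b belong to paralogous clusters with near-identical mature RNAs, so the split of reads between them is uncertain. Outside the pair, 8 features were more like Mir296 than Mir298 was, and 15 were more like Mir298 than Mir296 was. The choice of measure mattered. With Spearman's rho, 2 of the 5 features for Mir296 and 3 of the 5 for Mir298 were the same.

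The levels of these features show the same step between states. Mir34a averaged 637 ± 33.0 CPM in the resting and 5747 ± 852 CPM in the proliferating input, and Mir183 83.2 ± 16.9 and 998 ± 26.7 CPM. Mir96 was the scarcest, at 8.05 ± 4.44 and 93.9 ± 1.11 CPM. Mir155 was the most abundant, at 11182 ± 1365 and 115258 ± 6156 CPM. For Mir34a the IP values were 462 ± 24.8 CPM in resting and 4230 ± 1094 CPM in proliferating cells. The Mir96 level in the resting input is close to the floor of 3 counts, which is 7.76 to 8.36 CPM of the totals of those libraries.

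**Figure D5:**
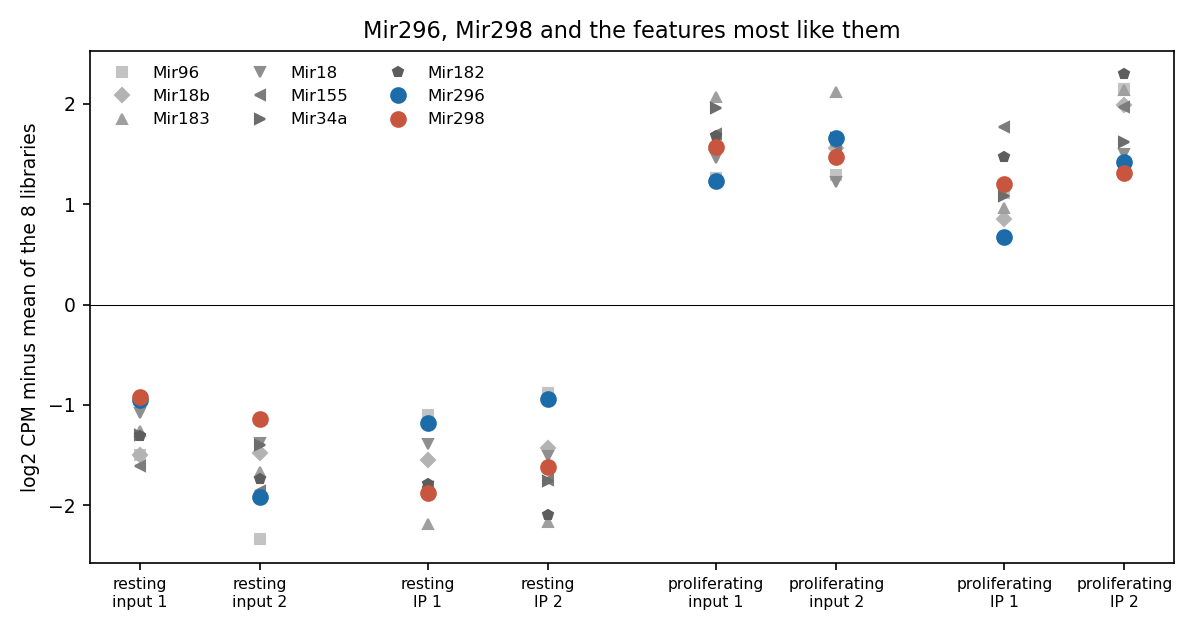
Log2 CPM minus the mean of the 8 libraries for Mir296, Mir298 and the 7 features most like them, in each library. The resting libraries lie below 0 and the proliferating libraries above 0 for all 9 features.

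Other imprinted miRNA genes had few counts in these cells, while the pair held 7562 counts over the 8 libraries. The list has 191 features. Taken by position are 67 between Dlk1 and Dio3, 119 within Sfmbt2 and 1 other at the Gnas locus. Taken by name are Mir335 in Mest, Mir483 and Mir675 of Igf2-H19, and Mir184. Of the 191 features, 22 had a count, and together they held 376 counts. In each library the pair held more counts than all of them, 150 to 3162 against 10 to 86. The Sfmbt2 features held 297, the Dlk1-Dio3 features 35, Mir335 22 and Mir184 19. They took between 0.00469% and 0.0105% of a library. Reads of the repeated Sfmbt2 copies may be split between near-identical genes or lost, so their low counts are uncertain.

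Only 2 of the 191, Mir467c and Mir669c of the Sfmbt2 cluster, had enough counts to be tested, against 219 features in all. Mir669c passed the filter on low counts only through the resting IPs, where it had most counts, so it had to differ between IP and input in resting cells, and its values there are given as a description. Of all features, 28.8% were called in that comparison (adjusted p under 0.05 in edgeR's quasi-likelihood test, adjusted by Benjamini-Hochberg), and nothing is read from this share for Mir669c. In resting cells Mir669c had 38 and 29 counts in IP and 1 and 0 in input. That is a ratio of 24.5 with an exact counting interval of 4.26 to 984. Neither gene was called for IP against input in proliferating cells (26.9% of all features called), for resting against proliferating input (49.3%) or IP (52.1%), or for the difference between states (17.4%). Nothing is read from either gene not being called. Mir467c passed the filter on low counts only through the proliferating libraries, so its values between states are given as a description too. In input, Mir467c had 2 and 0 resting and 11 and 4 proliferating counts. The median log2 fold change of the 2 for resting against proliferating input was -2.95, beside -0.04 for all features, but with 1 and 2 counts in the resting inputs this value depends on the prior count of the fit.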

How the data were processed

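Small RNA libraries of input RNA and of anti-HA AGO2 IP were made with a QIAseq kit and read single-end, per the labels. Reads were aligned to mm10 with STAR 2.7.9a and handled with SAMtools 1.15, per the submitters' processing notes. The authors deposited raw counts per miRNA gene, from deduplicated alignments, per the file headers. For the counter, its strand setting and its handling of reads with several positions, the sources used here give nothing. Each count covers both arms of a hairpin.

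Groups and replicate numbers came from sample titles. Features were named by exact coordinates from RefSeq (GRCm38.p6), which named 1179 of 2202. Features passing filterByExpr (minimum count 10) entered an edgeR 4.0.16 quasi-likelihood fit in R 4.3.3 with TMM factors (0.797 to 1.34) and 4 groups. Floors of 3 counts are 1.78 to 14.1 CPM of a library's total. Log2 fold changes are edgeR's, SE is the absolute log2 fold change over the square root of F, and p-values were Benjamini-Hochberg adjusted over 219 features at a threshold of 0.05. Likeness is Pearson's r of log2 CPM (prior count 2) over 8 libraries, and for each member the 5 features with the highest r are named. The imprinted list was taken by position, with Mir335, Mir483, Mir675 and Mir184 added by name, and all of its tested members are named. The marker lists are lymphocyte, myeloid, erythroid, endothelial and platelet, hepatocyte, muscle, neural, stromal and epithelial miRNAs. The members and lists were chosen with earlier results of these data known. Alternatives were other factors, other filters, DESeq2 1.42.0, fits of the 4 libraries compared, a replicate block and leaving out each library. A chi-square test between replicate libraries gave at least 8.56 per degree of freedom, above sampling noise, so all 8 libraries were kept as separate.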

Additional observations from a re-analysis of the deposited data

How the results depend on the processing

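All 64 alternative values of the members' resting against proliferating differences, in input or IP, were below 0, from -3.43 to -1.47. Upper-quartile factors gave -2.21 (input) and -2.36 (IP) for Mir298 and -1.47 (IP) for Mir296. For Mir298, library totals gave -2.92 in input, the 4 input libraries alone -2.75, and no filter -2.80 in IP. For IP against input in proliferating cells, library totals gave -0.98 (Mir296) and -0.87 (Mir298), and Mir298 was at -0.41 with upper-quartile factors and -0.37 with no filter. The difference of IP against input between states was -0.15 (upper quartile) and -0.075 (library totals) for Mir298. The features called for that difference, 38 in the edgeR fit, became 25 with size factors by median of ratios and 22 with upper-quartile factors. The cause was not tested.

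Leaving out 1 library at a time, the log2 fold change of IP against input in resting cells ranged from -0.066 to 1.08 for Mir296 and from -1.10 to -0.40 for Mir298. In proliferating cells it ranged from -0.83 to 0.01 for Mir296 and from -0.66 to -0.15 for Mir298. The resting against proliferating difference ranged from -3.43 to -2.34 for Mir296 and from -2.75 to -2.34 for Mir298 in input. In IP it ranged from -2.50 to -1.59 and from -3.25 to -2.57. The difference between states ranged from 0.14 to 1.73 and from -0.89 to 0.17. The median of all features moved as well, for this difference from -0.42 to 0.54. The called features ranged from 30 to 63 for IP against input in proliferating cells and from 11 to 46 for the difference between states. Deviations of same-numbered libraries correlated between groups with r from -0.12 to 0.18. With 2 libraries a group, whose noise could hide a pairing, this cannot decide whether shared numbers in the titles pair the libraries. The labels do not say. The replicate block gave -2.81 (Mir296) and -2.57 (Mir298) for the input difference of states, and no value moved by more than the spread between replicates. With library totals 3 of the 5 features most like each member were kept. The proliferating inputs are the shallowest libraries, with a floor of 3 counts at 10.9 and 14.1 CPM of their totals. The stricter filter and leaving out resting IP replicate 2 gave no value for Mir669c, which did not pass the filter there.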
